A study of Mus musculus with 30 samples.

Results

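In the junctions described here, reads from the JH4 segment of the mouse immunoglobulin heavy-chain locus (Igh) continue into a neighbouring JH segment. The aligned partner is JH3, JH2 or JH1, where an ordinary join has a D or V segment. Many of these junctions held D sequence between JH4 and the partner, as described below. The junctions were chosen by position alone. Every read with a prey end inside the stretch of chromosome 12 that holds JH1 to JH3 was taken, in all libraries. There were 36983 such junctions among 2074993, or 1.78%. Bone marrow libraries held 33291 of 1139295 (2.92%) and v-Abl libraries held 3692 of 935698 (0.395%).

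The study examined how chromatin anchors of the locus govern V(D)J recombination, with HTGTS-V(D)J-seq, a sequencing assay of genomic DNA that primes in JH4 (the bait) and reads across the junction into whatever was joined to it (the prey). It comprised 30 libraries in 10 groups of 3. The 6 bone marrow groups were pro-B cells (B220+IgM-CD43+) sorted from 129SV mice that differed at IGCR1, a control region between the V and D segments with CTCF-binding elements CBE1 and CBE2: both elements mutated (CBE12mut), CBE1 inverted (CBE1inv), CBE1 mutated (CBE1mut), CBE2 inverted (CBE2inv), CBE2 mutated (CBE2mut), and wild type (WT). The 4 v-Abl groups were C57BL/6 pro-B cells transformed by the v-Abl kinase, all RAG1-/-, with an Emu-Bcl2 transgene, a degron on the cohesin unloader WAPL and a single Igh allele. All of them received RAG1/2 by retrovirus and were kept for 4 days in 3 µM STI-571, an Abl inhibitor that arrests such cells in G1. A line lacking the CTCF-binding elements at the 3′ end of Igh (3CBEdel) and its parent (WT) were each treated for the last 3 days with auxin (IAA, 150 µM) plus doxycycline (2 µg/mL), here called DoxIAA, or left without them, here called untreated. Auxin triggers the breakdown of proteins that carry such a degron. The labels do not say how many mice, clones or cultures stand behind the 3 libraries of a group, so the spread given below may in part be technical.

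Heavy-chain genes are assembled in steps, with D joined to JH before V is joined to DJH. RAG cuts at recombination signals and pairs signals with unequal spacers. V and JH segments carry the one kind and D segments carry the other on both sides, so a D can be joined at either end, while a direct join of one JH to another pairs like signals. Loss of coding bases before ligation and addition of untemplated bases by the enzyme TdT give each junction its own sequence.

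The 4 JH segments are shown because the position and orientation of every junction below are read against them. Each line gives the recombination signal followed by the coding segment on the transcribed sense, with the signal heptamer next to the coding end in capitals. All lie on the minus strand of mm9, and the sequences and positions come from the reference for that build. The coordinates cover the coding part: chr12:114667992-114668044 for JH1, chr12:114667679-114667726 for JH2, chr12:114667296-114667343 for JH3 and chr12:114666725-114666778 for JH4. The JH2 position was taken from its sequence, since the annotation places the Ighj2 interval at chr12:114667725-114667778.
JH1 (Ighj1): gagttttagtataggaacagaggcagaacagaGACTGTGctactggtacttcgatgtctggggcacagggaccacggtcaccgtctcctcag
JH2 (Ighj2): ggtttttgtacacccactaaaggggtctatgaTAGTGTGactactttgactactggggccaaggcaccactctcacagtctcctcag
JH3 (Ighj3): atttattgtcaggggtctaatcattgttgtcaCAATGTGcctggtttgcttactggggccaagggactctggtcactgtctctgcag
JH4 (Ighj4): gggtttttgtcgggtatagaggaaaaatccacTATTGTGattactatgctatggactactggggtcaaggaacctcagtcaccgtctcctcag

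Examples of the junctions themselves follow, each the junction with the most reads for its segment among those with an identified D. A read starts in JH4 on its antisense strand, and the capitals mark the run of bases that matches a D segment. In all of them the prey on the right is the coding sense of the JH segment, beginning near its coding end.
JH3, bone marrow, Ighd2-8: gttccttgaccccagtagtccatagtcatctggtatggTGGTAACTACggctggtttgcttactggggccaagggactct
JH2, bone marrow, Ighd2-8: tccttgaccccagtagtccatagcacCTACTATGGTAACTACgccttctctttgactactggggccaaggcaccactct
JH3, v-Abl, Ighd1-1: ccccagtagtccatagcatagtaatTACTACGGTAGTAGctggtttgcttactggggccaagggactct
JH1, v-Abl, Ighd1-1: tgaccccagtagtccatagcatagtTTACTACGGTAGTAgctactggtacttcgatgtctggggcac
The first came from CBE2mut replicate 3 with 176 reads, the second from CBE2inv replicate 2 with 57 reads, and both v-Abl examples from WT untreated replicate 2 with 11 and 4 reads. The D segments they match are given next, on their coding sense, from mm9 (chr12:114689062-114689078 for Ighd2-8 and chr12:114720381-114720403 for Ighd1-1, both minus strand).
Ighd2-8: tctactatggtaactac
Ighd1-1: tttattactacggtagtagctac

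The junctions ran almost all in one direction. In deletional joining the prey continues away from JH4 on the same strand as an ordinary D or V join, and in the opposite orientation the prey reads back along its own coding sense. The opposite orientation made up 32435 of the 33291 bone marrow junctions (97.4%) and 3500 of the 3692 v-Abl junctions (94.8%). A search of all reads for a stretch of JH2 or JH3 coding sense found 31893 reads, of which 31826 were among these opposite junctions and 13 had their prey end outside the window. JH3, the nearest to JH4, had 17384 opposite reads in bone marrow, JH2 had 12176 and JH1 had 2875. CBE2inv replicate 2 and CBE2mut replicate 3 gave 4144 and 2801 of the JH3 reads. As distinct junctions there were 3091 at JH3, 2594 at JH2 and 568 at JH1. In v-Abl cells the opposite reads numbered 2820 at JH3, 540 at JH2 and 140 at JH1.

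Most of these reads were repeats of a smaller number of junctions. Reads of a library with the same position, orientation, bait end and gap sequence were taken as 1 distinct junction, which left 6253 distinct opposite junctions in bone marrow and 1660 in v-Abl cells. Each library showed between 1.62 and 5.28 reads per distinct opposite junction except 2. CBE2inv replicate 2 had 13.8 and CBE2mut replicate 3 had 15.3, and their most repeated single junctions held 142 and 176 reads. Values are therefore given both per read and per distinct junction, and the main CBE2 results are given with and without those 2 libraries.

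Library totals ranged from 11105 to 98682 junctions in bone marrow and from 13180 to 175957 in v-Abl cells. Read names placed the CBE2inv and CBE2mut libraries in a sequencing run with no WT library, so in each comparison of a CBE2 genotype with WT the genotype and the run cannot be told apart. The other bone marrow groups shared 1 run with WT. The v-Abl libraries came from 3 runs, each holding untreated and treated libraries of the same line. Different libraries shared few junctions in bone marrow: of those with a gap of at least 8 bases, at most 1.49% recurred in another library of the same run and none recurred in a library of the other run. In v-Abl libraries 1.26% to 18.9% recurred within a run and 0% to 16.4% across runs.

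The prey ends clustered at the coding end of each JH segment. In bone marrow the median distinct opposite junction had lost 3 bases of the JH3 coding end, 6 of JH2 and 3 of JH1. In v-Abl cells the medians were 3 bases at JH3, 4 at JH2 and 1 at JH1. Between 98.5% and 99.9% of distinct opposite junctions at JH2 and JH3 lay within 20 bp of the coding end in both kinds of cell, and so did 98.8% at JH1 in bone marrow and 100% at JH1 in v-Abl cells. Counted by reads, the share of opposite junctions that lay from 1 base past the end to 5 bases inside it did not differ detectably between the bone marrow genotypes (permutation test of the between-group variance, p = 0.789) or with DoxIAA in v-Abl cells (−2.14 percentage points, exact permutation p = 0.335).

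**Figure D1:**
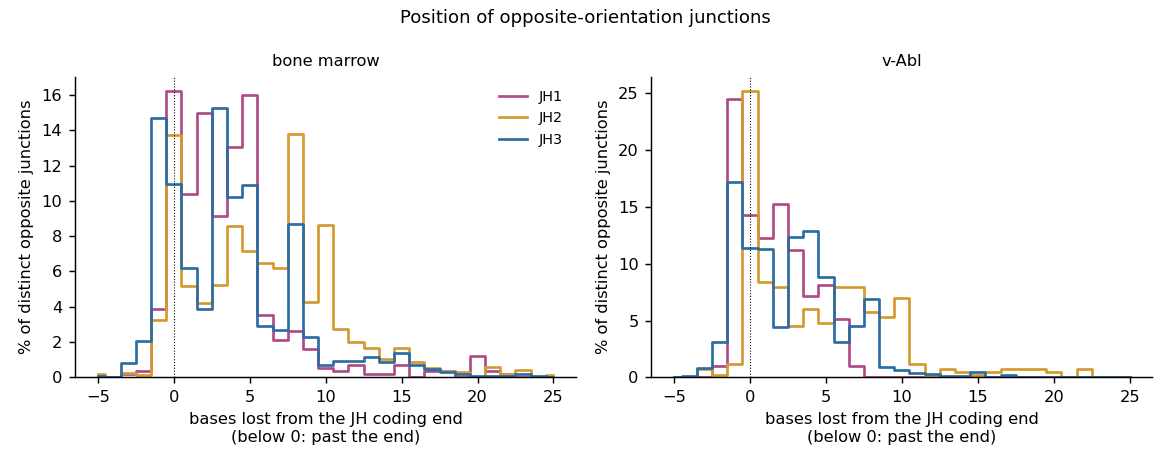
Position of distinct opposite-orientation junctions, as bases lost from the JH coding end (x axis, bases, below 0 is past the end) against the percentage of distinct opposite junctions of that segment (y axis), for bone marrow (left) and v-Abl libraries (right), with JH1, JH2 and JH3 in separate colours and the dotted line at the coding end. Bone marrow JH2 junctions are spread farther into the segment, with a median of 6 bases lost against 3 for JH3 and JH1.

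The gap between the JH4 and prey alignments was long enough to hold a D segment, as in V joins and unlike D joins. Per library, the median gap of distinct opposite JH junctions was 15 to 17 bases in bone marrow, against 17 to 18 in V joins and 3 to 4 in D joins of the same libraries. In v-Abl libraries it was 8.5 to 14 bases, against 12 to 14 in V joins and 1 to 2 in D joins. The deposited files hold no gap over 30 bases.

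**Figure D2:**
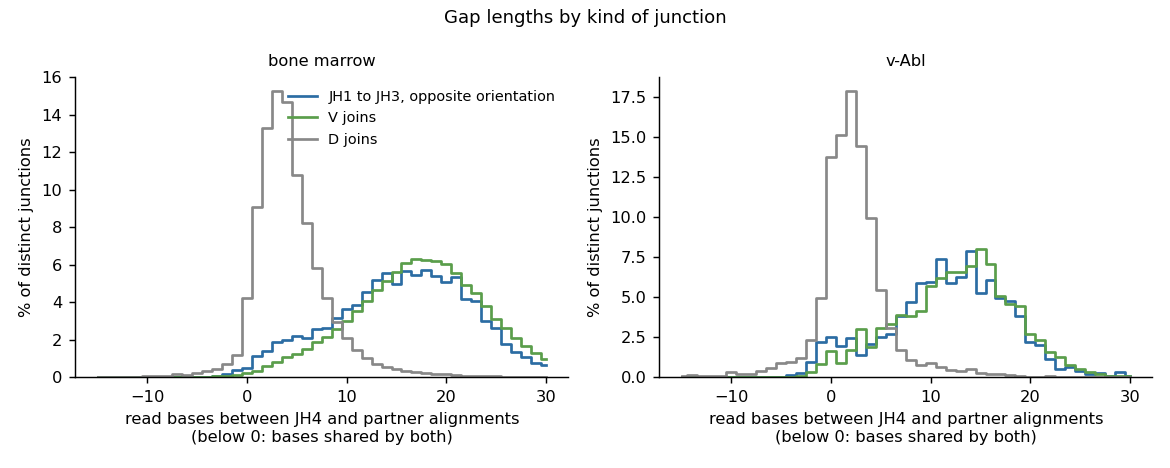
Percentage of distinct junctions (y axis) at each gap length (x axis, read bases between the JH4 and partner alignments, below 0 for bases shared by both), pooled over bone marrow (left) and v-Abl libraries (right). Opposite-orientation JH1 to JH3 junctions (blue) follow V joins (green), with library medians of 15 to 17 and 17 to 18 bases in bone marrow, while D joins (grey) sit at 3 to 4.

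The gaps held D sequence. A run of at least 8 bases matching a D segment was found in 41.8% to 55.6% of the distinct opposite JH junctions of a bone marrow library, against 55.1% to 60.4% of V joins and 0.843% to 1.71% of D joins. In v-Abl libraries the run was found in 50.0% to 74.9%, against 70.2% to 78.0% of V joins and 1.30% to 5.56% of D joins. Among gaps of 10 to 20 bases, where a run can be found in each kind of join, the library medians were 54.4% for JH junctions, 55.6% for V joins and 13.6% for D joins in bone marrow. In v-Abl cells those medians were 92.5%, 96.4% and 74.0%.

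The D in these gaps lay the other way round from the D of a V join. Of 3190 runs in bone marrow JH gaps, 3072 (96.3%, 92.7% to 99.1% per library) were on the coding sense of the D along the read, and in v-Abl cells 1140 of 1152 (99.0%) were. In V joins 97.0% of bone marrow runs and 99.2% of v-Abl runs had the reverse sense, that of a deletional join to JH4. Read from JH4 outward, the order was thus the 5′ end of D, the 3′ end of D, and then the coding end of JH1, JH2 or JH3, so that the D and the outer JH segment stood in the same arrangement as in a DJH join and JH4 met the D at the side where V is joined.

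More bases were missing from the 5′ end of the D than from its 3′ end. In bone marrow, D runs at JH1, JH2 and JH3 had a median of 4 bases lost from the 5′ end of D, which faced JH4, and 1 to 2 from the 3′ end, which faced the other JH. In V joins, where the 5′ end faces V, the medians were 4 bases at the 5′ end and 1 at the 3′ end. In v-Abl cells the 5′ end had lost a median of 4.5 bases at JH1 and JH2 and 5 at JH3, and the 3′ end had lost 4 at JH1, 3 at JH2 and 2 at JH3, so the ends were close at JH1. In V joins the v-Abl medians were 4 and 2. These differences were not tested. Bases that matched neither the D run nor a JH alignment separated bone marrow runs from JH4 (median 4) and from the other JH (median 3). Some of them may be 129SV D sequence that differs from the C57BL/6 segments searched. In v-Abl cells both medians were 0, and the run touched JH4 in 78.3% to 85.5% of junctions, against 9.31% to 11.6% in bone marrow. These runs also depend on where the alignments end, since a base that fits both sides is given to one of them.

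The level of JH1 to JH3 junctions differed between the bone marrow genotypes and was highest in both CBE2 groups. CBE2mut libraries held 5054, 7627 and 9582 JH1 to JH3 junctions per 100000 junctions, CBE2inv libraries held 5437, 16435 and 6487, and WT libraries held 1605, 2036 and 2029. Every CBE2mut and CBE2inv library lay above every WT library, and CBE2inv replicate 2 lay far above the others. The means were 7421 ± 2271 in CBE2mut, 9453 ± 6070 in CBE2inv and 1890 ± 247 in WT (SD, n = 3 each). Each difference from WT had an exact two-sided permutation p of 0.1, the smallest that 3 against 3 libraries allow, and 0.122 after adjustment over the 11 contrasts of this measure. Without CBE2inv replicate 2 the difference from WT was 4072 per 100000, against 7563 with it, and without CBE2mut replicate 3 it was 4451, against 5531 with it. All 5 comparisons with WT share its 3 libraries.

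Among the genotypes sequenced with WT the differences were smaller. CBE1inv libraries held 2750, 2259 and 2513 junctions per 100000, all above WT, with a mean of 2507 ± 246 (difference 617, exact permutation p = 0.1). CBE12mut libraries held 1228, 1552 and 1394, all below WT, with a mean of 1392 ± 162 (difference −498, exact permutation p = 0.1). CBE1mut libraries held 1562, 1546 and 1725 and overlapped with WT (mean 1611 ± 99.0, exact permutation p = 0.2). CBE1inv exceeded CBE1mut by 896 per 100000 (exact permutation p = 0.1), and CBE2inv and CBE2mut overlapped (exact permutation p = 0.8). A permutation test of the between-group variance over all 6 genotypes gave p = 0.00948. With distinct junctions the levels were 3204 ± 394 per 100000 in CBE2mut, 3472 ± 572 in CBE2inv and 1837 ± 196 in WT, and the permutation p was 1e-05, the smallest that its draws can give.

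**Figure D3:**
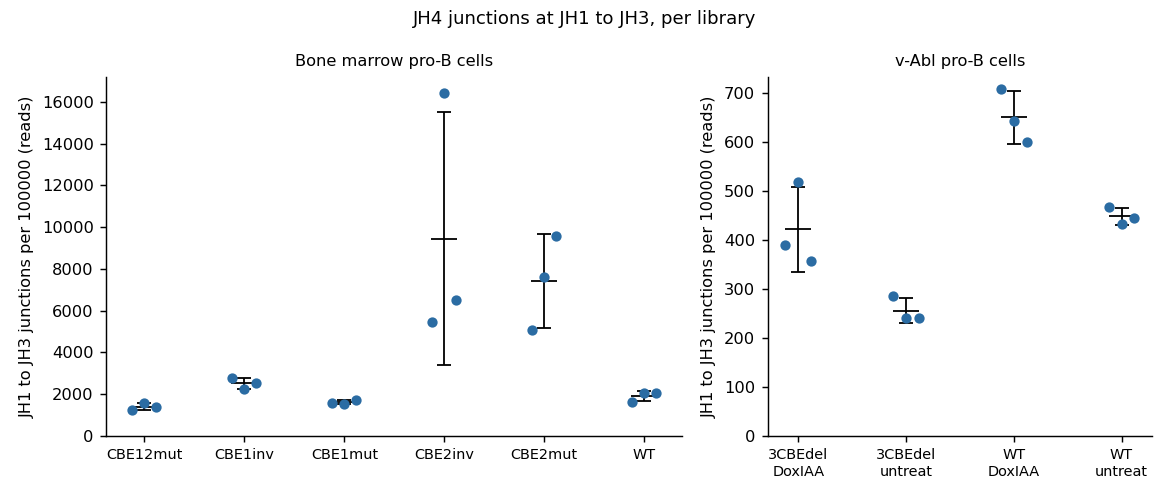
JH1 to JH3 junctions per 100000 junctions of a library (y axis, reads) for the 6 bone marrow genotypes (left) and the 4 v-Abl groups (right), with dots for libraries and bars for mean ± SD of 3. CBE2inv replicate 2 stands at 16435 per 100000, and the CBE2 libraries otherwise lie between 5054 and 9582, all above WT.

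Set against D joins, every mutant genotype exceeded WT. The denominator differed too, since D joins made up a smaller share of all junctions in every mutant library than in any WT library. In CBE12mut and CBE1mut the mean level among all junctions was below WT. Their higher ratio therefore does not show that JH1 to JH3 joining was more frequent there. The number of JH1 to JH3 junctions per 100 D joins was 10.3, 13.1 and 9.47 in CBE12mut, 5.24, 4.42 and 5.04 in CBE1inv and 5.63, 5.94 and 6.43 in CBE1mut. It was 9.68, 39.6 and 12.4 in CBE2inv and 11.9, 14.4 and 17.9 in CBE2mut, against 2.60, 3.25 and 3.00 in WT. No mutant library overlapped with WT. The means were 10.97 ± 1.89 in CBE12mut, 4.90 ± 0.428 in CBE1inv, 6.00 ± 0.400 in CBE1mut, 20.5 ± 16.5 in CBE2inv, 14.7 ± 3.01 in CBE2mut and 2.95 ± 0.328 in WT, and each exact permutation p against WT was 0.1 (adjusted 0.11).

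Counting distinct junctions kept each mutant genotype above WT in this ratio and brought the CBE2 groups closer to the rest. By distinct junctions the level among all junctions was lower in every CBE12mut and CBE1mut library than in any WT library. Per 100 distinct D joins there were 9.20 ± 0.880 distinct JH junctions in CBE12mut, 5.25 ± 0.236 in CBE1inv, 5.64 ± 0.232 in CBE1mut, 7.70 ± 2.31 in CBE2inv, 7.13 ± 0.719 in CBE2mut and 3.50 ± 0.196 in WT (SD, n = 3 each). The permutation test of the between-group variance gave p = 0.00047 for distinct junctions and p = 0.0244 for reads. With reads, leaving out 1 library gave p between 0.00067 and 0.0901, so that call depended on single libraries. Without CBE2inv replicate 2 the read difference between CBE2inv and WT was 8.09 junctions per 100 D joins, against 17.6 with it. Without CBE2mut replicate 3 the difference between CBE2mut and WT was 10.2, against 11.8 with it.

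**Figure D4:**
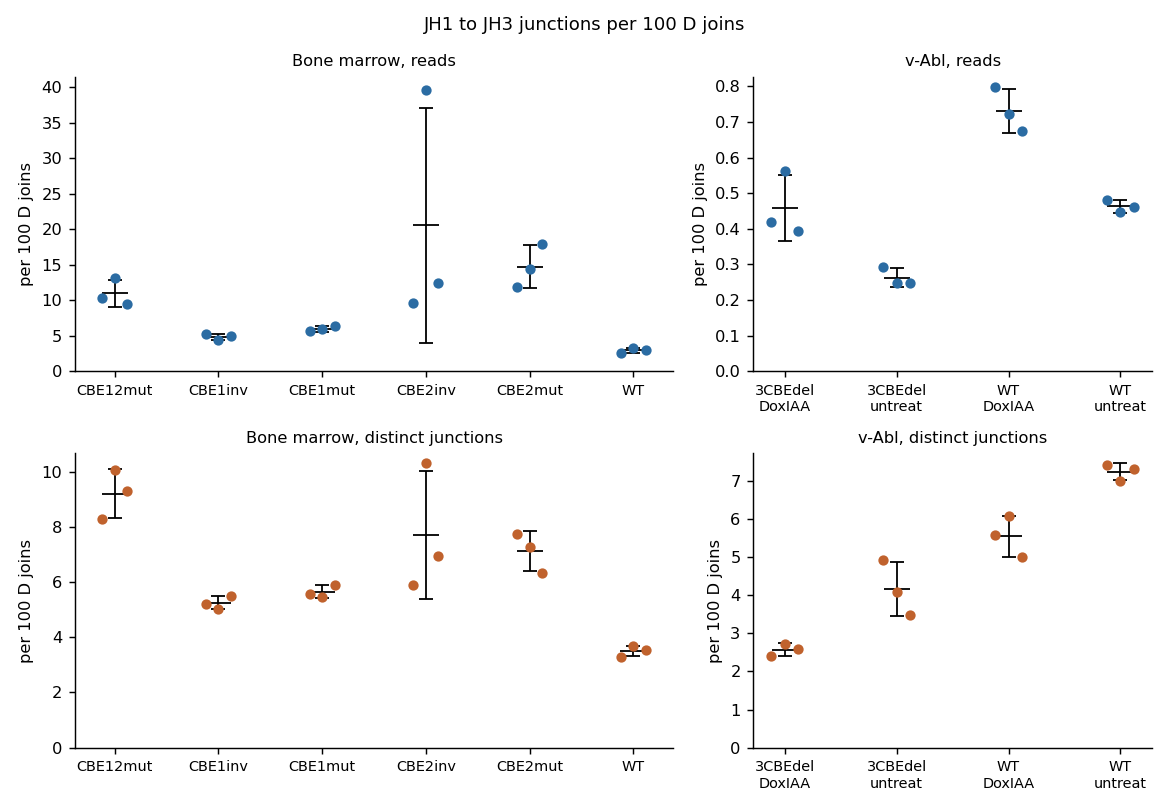
JH1 to JH3 junctions per 100 D joins (y axis) by reads (top) and by distinct junctions (bottom), for bone marrow (left) and v-Abl groups (right), with dots for libraries and bars for mean ± SD of 3. In v-Abl cells DoxIAA groups lie above their untreated groups by reads (0.731 against 0.463 in WT) and below them by distinct junctions (5.54 against 7.23 in WT).

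The segments and orientations were fitted one by one with limma voom beside windows of 1 kb across the rest of the locus in bone marrow. Of the 6 combinations of segment and orientation 5 passed the filter of 10 reads in 3 libraries, and JH2 deletional did not. Against WT, 4 of 5 were called in CBE2mut, where 14.1% of all 199 features were called, and 3 of 5 in CBE2inv, where 7.04% were. In each, 1 of the calls was JH1 deletional, which rests on reads in sequence shared with JH4, as described below. JH3 opposite was higher by a log2 difference of 2.26 in CBE2mut (limma adjusted p = 7.13e-05) and 2.36 in CBE2inv (adjusted p = 7.42e-05). Without CBE2mut replicate 3 the JH3 opposite difference in CBE2mut was 1.78 (limma adjusted p = 0.00448), and without CBE2inv replicate 2 that in CBE2inv was 1.45 (adjusted p = 0.00256). JH2 opposite was higher by 1.46 in CBE2mut (limma adjusted p = 3.64e-05) and 2.17 in CBE2inv (adjusted p = 2.30e-08). JH1 opposite was higher by 1.24 in CBE2mut (limma adjusted p = 0.00493), and its log2 difference of 0.93 in CBE2inv had an adjusted p of 0.0707. These differences are per read and include repeats. Among distinct junctions, JH3 opposite numbered 147 of 10236, 114 of 5731 and 155 of 8307 in CBE2mut. In CBE2inv it numbered 121 of 9446, 260 of 10739 and 94 of 6248. WT had 176 of 23387, 190 of 20058 and 219 of 23755. The CBE2 shares were still above WT, by less than the read differences.

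In the CBE1 and double mutants no JH feature was called against WT by limma voom. The count was 0 of 5 in CBE12mut, where 83.9% of all features were called and 169 of 199 had an unadjusted p under 0.05. It was 0 of 5 in CBE1mut, where 58.8% were called and 128 had an unadjusted p under 0.05, and 0 of 5 in CBE1inv, where 7.54% were called and 32 had an unadjusted p under 0.05. Limma voom on distinct junctions called 2 JH features in CBE12mut and 2 in CBE1mut, all lower than in WT. No deletional JH feature reached 10 distinct junctions in a bone marrow library, so none passed the filter there. In CBE12mut, JH2 opposite had 106, 87 and 87 distinct junctions and JH3 opposite had 95, 109 and 126. WT had 164, 160 and 191 at JH2 and 176, 190 and 219 at JH3. The share of all features called in that fit is not given here. By reads, the opposite JH features lay above the bulk of the locus in CBE12mut. JH1, JH2 and JH3 opposite had log2 differences from WT of 0.31, −0.39 and −0.77, while the median over all 199 features was −1.98. JH1 deletional was at −0.17 (SE 0.862), and JH3 deletional was nearer to that median at −1.51 (SE 1.10). No test compared the JH features with the median. In CBE1mut the median was −1.03 and the opposite features were at 0.12, −0.03 and −0.52, with JH1 and JH3 deletional at 0.24 and 1.18.

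These directions depended on the scaling. With median-of-ratios size factors, which set the median feature near 0, JH1 and JH2 opposite were higher in CBE12mut than in WT by 2.28 (limma adjusted p = 1.31e-06) and 1.58 (adjusted p = 0.000134), and JH3 opposite had 1.16 (adjusted p = 0.0806). In CBE1mut JH1 and JH2 opposite were higher than in WT by 1.13 (limma adjusted p = 0.0177) and 0.97 (adjusted p = 0.0380). The CBE2 calls at JH2 and JH3 opposite kept their direction and their side of the threshold under that scaling.

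Between inversion and mutation of CBE1, 2 of 5 JH features were called, where 44.2% of all features were and the median log2 difference was 0.80. JH2 opposite was higher in CBE1inv than in CBE1mut by 0.69 (limma adjusted p = 0.0142), below that median and −0.15 under median-of-ratios scaling. JH3 deletional had a log2 difference of −2.95 (limma adjusted p = 0.0192). The JH2 call was lost without CBE1mut replicate 2 or 3 (limma adjusted p = 0.0527 and 0.0580), and the JH3 call without CBE1mut replicate 1 or CBE1inv replicate 2 (adjusted p = 0.0507 and 0.0894). Between CBE2inv and CBE2mut 0 of 5 were called, where 3.02% of all features were called and 32 of 199 had an unadjusted p under 0.05.

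The shares of the partner segments also varied between genotypes. JH3 made up 39.7% ± 9.29 of opposite reads in CBE12mut, 45.3% ± 2.29 in CBE1inv, 41.1% ± 3.69 in CBE1mut, 54.5% ± 12.9 in CBE2inv, 62.6% ± 8.72 in CBE2mut and 50.1% ± 2.11 in WT. JH2 made up 41.8% ± 10.6 in CBE12mut, 45.6% ± 2.40 in CBE1inv, 45.2% ± 5.41 in CBE1mut, 39.6% ± 9.63 in CBE2inv, 30.3% ± 6.83 in CBE2mut and 39.2% ± 1.84 in WT, so by reads its mean was level with or above that of JH3 in the first 3 genotypes. By distinct junctions this order did not hold. CBE1inv libraries had 255, 224 and 286 at JH2 and 299, 275 and 302 at JH3. CBE12mut had 106, 87 and 87 at JH2 and 95, 109 and 126 at JH3. CBE1mut had 129, 139 and 119 at JH2 and 135, 126 and 148 at JH3. By reads, JH1 made up 18.5% ± 5.36 in CBE12mut and 10.7% ± 1.92 in WT, with all 3 CBE12mut libraries above WT (exact permutation p = 0.1, adjusted 0.22). CBE1mut, at 13.7% ± 2.04, lay above WT in all libraries too, and CBE2inv, at 5.92% ± 3.47, lay below it, with the same p. The between-group variance of the JH3 share between genotypes gave a permutation p of 0.0259 by reads and 0.132 by distinct junctions, so the variance of that share was not past the threshold over distinct junctions. The JH1 share of distinct junctions was 13.6% ± 2.40 in CBE12mut and 10.8% ± 0.0552 in CBE1mut, against 9.23% ± 1.19 in WT, again with no overlap (exact permutation p = 0.1, adjusted 0.22). CBE2inv overlapped with WT by distinct junctions. JH1 had 24 of 278, 19 of 437 and 9 of 201 opposite junctions in CBE2inv. In WT it had 30 of 370, 35 of 385 and 48 of 458. In CBE2inv replicate 2 and CBE2mut replicate 3, the libraries with the most repeated reads, JH3 took 68.7% and 72.6% of opposite reads, the highest bone marrow values.

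Junctions in the deletional direction were rare, and most lay outside the coding segments. Bone marrow libraries held 856 of them, of which 613 were at JH1, and v-Abl libraries held 192, of which 143 were at JH3. At JH1 in bone marrow the median read lay 57 bases from the coding end, past the 53 bases of the segment and in its downstream flank, with 21 read bases shared between the JH4 and JH1 alignments. JH1 and JH4 share a run of 21 bases there, shown here on the strand of the bait.
Shared run of JH4 and JH1: cttacctgaggagacggtgac
The longest run that JH4 shares with JH2 is 12 bases and with JH3 8 bases.

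Junctions in shared sequence were frequent in all 6 CBE2 libraries, which are also all libraries of their sequencing run. Those in which bait and prey shared at least 10 read bases numbered 299 to 674 per 100000 in CBE2inv and 216 to 317 in CBE2mut libraries, and 1.29 to 18.9 in the other bone marrow libraries. They were few as distinct junctions, with 306 reads falling into 11 in CBE2inv and 233 into 13 in CBE2mut, against 24 into 6 in WT. With shared-sequence junctions included, the deletional level was 286 ± 73.3 per 100000 in CBE2mut, 452 ± 192 in CBE2inv and 33.6 ± 23.7 in WT (SD, n = 3 each, exact permutation p = 0.1 for each against WT, adjusted 0.367). Without them it was 20.7 ± 26.2 in CBE2mut, 15.9 ± 21.2 in CBE2inv and 23.5 ± 20.5 in WT. The limma call for JH1 deletional, with log2 differences of 4.88 in CBE2mut and 5.41 in CBE2inv against WT (adjusted p = 2.17e-06 and 3.46e-07), rests on these reads and on a feature that passed the filter in 6 CBE2 libraries and 3 others. The opposite junctions held none of them.

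At JH3 the deletional junctions lay on the signal side, with 75.6% of the distinct bone marrow ones and 64.0% of the v-Abl ones 1 to 10 bases past the coding end. In CBE1inv 9, 10 and 13 deletional junctions of any segment were counted, against 43, 28 and 37 in CBE1mut. The level was 11.4 ± 1.85 per 100000 in CBE1inv and 47.7 ± 11.4 in CBE1mut, with no overlap (exact permutation p = 0.1, adjusted 0.367).

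In v-Abl cells, DoxIAA libraries held more JH1 to JH3 reads than untreated ones in both lines. WT DoxIAA libraries held 709, 643 and 601 junctions per 100000, against 467, 432 and 446 in WT untreated libraries. In 3CBEdel, DoxIAA libraries held 389, 519 and 357, against 285, 240.3 and 241 in untreated libraries. Treated and untreated libraries did not overlap in either line. Over both lines the difference was 184 per 100000 and 0.232 per 100 D joins (exact permutation over 400 relabelings, p = 0.005, the smallest that it allows). Within the sequencing run that holds both lines the difference was 187 per 100000, with an exact permutation p of 0.0556.

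By distinct junctions of whole libraries the direction was the reverse. Those libraries differed in depth, with 82947 to 175957 junctions untreated and 13180 to 31275 with DoxIAA. WT DoxIAA libraries had 5.57, 6.06 and 4.99 distinct JH junctions per 100 distinct D joins, against 7.41, 6.98 and 7.31 in WT untreated libraries. In 3CBEdel the values were 2.39, 2.73 and 2.58 with DoxIAA, against 4.91, 4.09 and 3.48 untreated. Again no libraries overlapped, and the difference over both lines was −1.64 (exact permutation p = 0.005). Each distinct D join stood for 10.6 to 17.8 reads with DoxIAA and 24.6 to 35.8 reads untreated, while each distinct JH junction stood for 1.62 to 3.15 and 1.76 to 2.22 reads. With 10000 junctions drawn from each library the difference in this ratio was 0.657 in WT (exact permutation p = 0.3) and 0.348 in 3CBEdel (exact permutation p = 0.1). The sign of the treatment difference thus depended on the way of counting and on the number of junctions drawn.

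Lack of the 3′ elements went with fewer JH1 to JH3 junctions by reads and by distinct junctions. Over both treatments 3CBEdel differed from WT by −211 reads per 100000, by −0.237 reads per 100 D joins and by −3.02 distinct junctions per 100 distinct D joins (exact permutation p = 0.005 for each). Every 3CBEdel library lay below every WT library of the same treatment by reads and by distinct junctions. Within the sequencing run that holds both lines the difference was −172 per 100000 (exact permutation p = 0.0556). The treatment effects of the 2 lines differed by −36.4 per 100000 (exact permutation p = 0.8).

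By limma voom, fitted beside V and D segments, 4 of the 6 JH features passed the filter. JH3 opposite was lower in 3CBEdel than in WT untreated libraries, with a log2 difference of −0.81 (limma adjusted p = 0.00153), the 1 of 4 JH features called there, where 5.26% of all 76 features were called. Under DoxIAA 0 of 4 were called by limma voom, where 1.32% of all features were called and 9 of 76 had an unadjusted p under 0.05. JH3 opposite was higher with DoxIAA by 0.49 in WT (limma adjusted p = 0.0125) and 0.76 in 3CBEdel (adjusted p = 0.00820), the 1 of 4 called in each, where 80.3% and 76.3% of all features were called. The call was lost without WT DoxIAA replicate 2 in WT and without 3CBEdel DoxIAA replicate 2 in 3CBEdel (limma adjusted p = 0.0648 and 0.0644). With DoxIAA the median feature differed by 4.62 in WT and 3.48 in 3CBEdel, so JH3 opposite lay far below the bulk of the features. Under median-of-ratios scaling JH3 opposite turned to −1.40 in WT and −0.85 in 3CBEdel, and with distinct junctions to −0.79 and −0.87. For the difference of the treatment effects between the lines limma voom called 0 of 4 JH features and 0% of all 76, of which 12 had an unadjusted p under 0.05.

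JH3 was the partner in most v-Abl junctions in every group. It took 83.9% ± 10.5 of opposite reads in 3CBEdel DoxIAA, 81.0% ± 2.68 in 3CBEdel untreated, 78.4% ± 3.42 in WT DoxIAA and 80.2% ± 2.98 in WT untreated libraries, and neither treatment (exact permutation p = 0.905) nor line (p = 0.37) gave a detectable difference. The JH1 counts behind these shares were at most 26 reads per library.

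The gaps of opposite junctions were shorter with DoxIAA over both lines. Their mean over reads was 9.07 ± 0.831 bases in 3CBEdel DoxIAA and 11.2 ± 0.630 in 3CBEdel untreated libraries, and 10.2 ± 1.18 in WT DoxIAA and 11.5 ± 0.242 in WT untreated libraries. Over both lines the difference was −1.76 bases (exact permutation p = 0.015), while the WT groups alone overlapped (exact permutation p = 0.3). Gaps of other joins in the same libraries were also shorter on average. Distinct D joins had mean gaps of 1.24 ± 0.0730 bases in 3CBEdel DoxIAA and 2.29 ± 0.0592 in 3CBEdel untreated libraries, and 1.43 ± 0.0705 in WT DoxIAA and 2.64 ± 0.118 in WT untreated libraries. Distinct V joins had 12.6 ± 0.694 in 3CBEdel DoxIAA and 13.0 ± 0.414 in 3CBEdel untreated libraries, and 11.8 ± 0.248 in WT DoxIAA and 12.4 ± 0.367 in WT untreated libraries. A D run was found in 50.6% ± 4.92 of opposite reads in 3CBEdel DoxIAA and 70.2% ± 2.66 in 3CBEdel untreated, and in 63.5% ± 5.06 in WT DoxIAA and 72.1% ± 5.24 in WT untreated libraries (difference over both lines −14.1 points, exact permutation p = 0.01). The WT groups alone overlapped (exact permutation p = 0.2). Among distinct junctions with gaps of 10 to 20 bases the shares were 88.6% ± 11.5 in 3CBEdel DoxIAA and 93.9% ± 2.52 in 3CBEdel untreated, and 90.3% ± 4.09 in WT DoxIAA and 92.9% ± 6.23 in WT untreated libraries, with overlap in both lines. Within the run that holds both lines the differences were −1.55 bases (p = 0.167) and −12.5 points (p = 0.111), both exact. In bone marrow neither measure differed detectably between genotypes (permutation p = 0.614 and 0.624).

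The D segments found in the gaps differed between the kinds of cell. In v-Abl cells Ighd1-1, known as DFL16.1 and lying at the distal side of the D segments, made up 635 of 1152 runs (55.1%). Ighd2-3 made up 299 (25.95%) and Ighd2-8 made up 63 (5.47%) of the pooled runs, most of which came from untreated libraries. In 3CBEdel DoxIAA libraries Ighd2-3 had 22 runs and Ighd1-1 had 11, and in WT DoxIAA libraries they had 51 and 54. In bone marrow Ighd2-8 made up 1028 of 3190 runs (32.2%), Ighd2-4 made up 631 (19.8%) and Ighd1-1 made up 452 (14.2%). The Ighd2 family as a whole, the repeated D segments between the outer ones, made up 42.2% in v-Abl cells and 77.5% in bone marrow. Bone marrow runs were matched to C57BL/6 segments although the mice were 129SV, so only the family is safe there. Ighd4-1 (DQ52), the D nearest to JH, is 11 bases long and can seldom leave a run of 8, and it made up 2.95% of bone marrow and 1.56% of v-Abl runs.

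The Ighd1-1 share in JH gaps was lower with DoxIAA in both v-Abl lines. In WT the share was 21.3%, 43.1% and 32.0% of runs with DoxIAA, against 66.5%, 55.9% and 59.5% untreated, over 162 and 651 runs in all. In 3CBEdel it was 6.67%, 46.7% and 20.0% with DoxIAA, against 60.2%, 63.6% and 51.9% untreated, but each treated library held only 15 runs. No treated library reached the untreated ones. Over both lines the difference was −31.3 points (exact permutation p = 0.005), and −27.7 points within the run that holds both lines (exact permutation p = 0.0556). The Ighd2 share moved the other way by 27.3 points (exact permutation p = 0.01).

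D joins and V joins of the same libraries also had lower Ighd1-1 shares with DoxIAA. Ighd1-1 took 34.3% ± 0.349 of D joins in WT DoxIAA and 73.2% ± 0.780 in WT untreated libraries, and 38.997% ± 2.15 in 3CBEdel DoxIAA and 72.5% ± 2.90 in 3CBEdel untreated libraries. In V-join gaps it took 40.1% ± 2.88 of runs in WT DoxIAA and 48.3% ± 0.499 in WT untreated, and 45.1% ± 7.89 in 3CBEdel DoxIAA and 57.0% ± 3.91 in 3CBEdel untreated libraries (difference over both lines −10.1 points, exact permutation p = 0.01, with some overlap between libraries in 3CBEdel). The difference between the shifts in JH gaps and in V gaps was not tested.

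In bone marrow the Ighd1-1 share in JH gaps was 7.85% ± 2.37 in CBE12mut, 14.1% ± 4.18 in CBE1inv, 16.1% ± 1.03 in CBE1mut, 10.1% ± 1.63 in CBE2inv, 14.6% ± 2.88 in CBE2mut and 19.2% ± 5.68 in WT (SD, n = 3 each). The CBE12mut and CBE2inv libraries all lay below WT, while the other 3 genotypes overlapped with it. The between-group variance had a permutation p of 0.0148. V joins of the same libraries had shares of 8.96% ± 0.266 in CBE12mut, 24.6% ± 0.631 in CBE1inv, 23.1% ± 0.527 in CBE1mut, 19.5% ± 0.689 in CBE2inv, 17.4% ± 1.32 in CBE2mut and 31.2% ± 1.08 in WT, each mutant below WT in all libraries (exact permutation p = 0.1, adjusted 0.122).

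**Figure D5:**
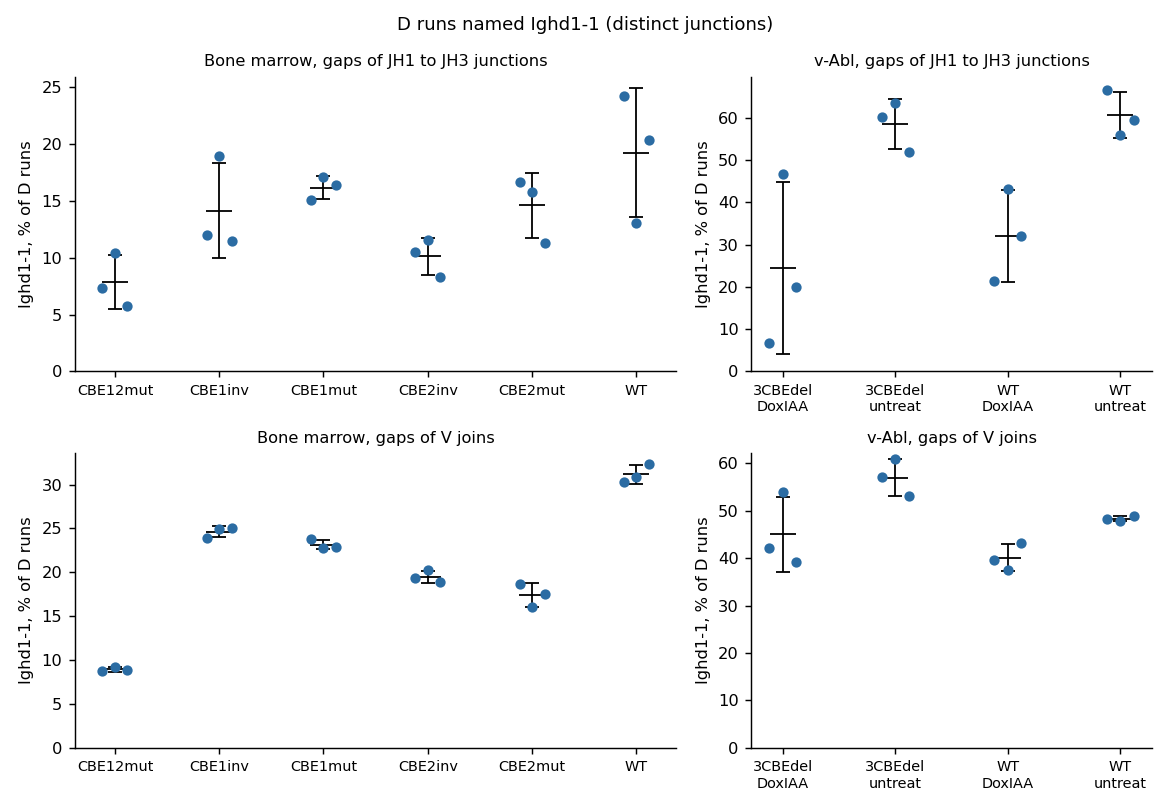
Share of D runs matching Ighd1-1 (y axis, percent of runs in distinct junctions) in gaps of JH1 to JH3 junctions (top) and of V joins (bottom), for bone marrow (left) and v-Abl groups (right), with dots for libraries and bars for mean ± SD of 3. DoxIAA libraries lie below untreated ones in JH gaps, at 32.1% against 60.6% in WT and 24.4% against 58.5% in 3CBEdel.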

How the data were processed

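HTGTS-V(D)J-seq junctions were read from 30 deposited tables of 1 read per line, which hold junction position, strand and the read itself. Per the submitters' processing notes the reads were aligned with Bowtie2 to mm9. The version is not given in the sources used here. The bone marrow files use a target with the 129 Igh locus set into mm9, per the labels, so bone marrow positions were shifted by 1 constant and checked against the JH sequences. The values that the authors deposited are positions in the read and on the target, with no abundance value, and any filter before deposit is not given in the sources used here. The bait primers differed between bone marrow and v-Abl libraries, so levels are not compared across them.

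Each count of JH1 to JH3 junctions was divided by all junctions of its library or by its D joins, and repeated reads were collapsed to distinct junctions. Groups of 3 libraries were compared with exact two-sided permutation tests (20 relabelings, smallest p 0.1), with Benjamini-Hochberg adjustment over 11 contrasts, joint v-Abl tests over 400 relabelings, and a variance test over the bone marrow genotypes with 100000 draws. Features (JH segments by orientation, with windows of 1 kb in bone marrow or D and V segments in v-Abl lines) with at least 10 junctions in 3 libraries went into a voom fit (limma 3.58.1, R 4.3.3) over all groups of a cell type, and called at an adjusted p under 0.05. The fit was also run on simulated counts with a fixed spread and no repeated reads, which cannot show how it handles the repeats in these libraries. Other computations used Python 3.11.15, pandas 2.3.3, numpy 2.4.6 and scipy 1.17.1, and plots used matplotlib 3.10.9. PCR repeats are not independent molecules, and p-values measure only the spread between these libraries.

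The rule for names took all 3 JH segments in both orientations in each contrast, and for gaps the 3 D segments with the most runs in each kind of cell. Members and lists were chosen with earlier results of these data known. Same-numbered replicates deviated together, with every correlation over 0.1, only between CBE1mut and WT (0.121, 0.177 and 0.155) and between CBE1inv and WT (0.243, 0.315 and 0.217), so a replicate block was fitted as an alternative. Other alternatives changed the scaling, the filter, the D run length, the counting of repeats, the sequencing runs used and each replicate.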

Additional observations from a re-analysis of the deposited data

How the results depend on the processing

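The genotype differences from WT in the level kept their direction when scaled to V plus D joins or to junctions outside the JH window. Those in junctions per 100 D joins did so with deletional D joins as the denominator. Both also kept it within 20 bp of a coding end and without shared-sequence junctions. Between these measures the direction differed in CBE12mut (−498 per 100000 and 8.02 per 100 D joins) and in CBE1mut (−279 and 3.05). The values below changed sign or side of a threshold, and the cause was not tested. With distinct junctions the treatment difference per 100000 was −1929 in WT, −1362 in 3CBEdel and −1645 over both lines, and per 100 D joins −1.69, −1.59 and −1.64. The variance p was 0.102 for the share of the opposite orientation and 0.132 for the JH shares. With 10000 junctions drawn per library, an alternative chosen after seeing the data like the within-run ones and the removal of shared-sequence junctions, the differences per 100000 were −267 in WT and −38.5 in 3CBEdel. In bone marrow run 1 alone the JH share variance p was 0.149. Within sequencing run 4 the treatment differences were 187 per 100000, 0.233 per 100 D joins, −1.55 gap bases and −12.5 points of D runs, and the 3CBEdel differences −172 per 100000 and −0.195 per 100 D joins, with exact permutation p of at least 0.0556.

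The log2 differences of single segments that turned sign by limma were these. With distinct junctions, JH1 opposite was −0.17 in CBE12mut and −0.24 in CBE1mut against WT, JH3 opposite −0.0083 between CBE2inv and CBE2mut, JH2 and JH3 opposite −0.65 and −0.79 for WT treatment, JH1 and JH3 opposite −1.08 and −0.87 for 3CBEdel treatment, and JH3 opposite −0.072 for the difference of effects. With median-of-ratios size factors, CBE12mut against WT had 1.75 at JH1 deletional, 1.58 at JH2 opposite, 0.43 at JH3 deletional and 1.16 at JH3 opposite, and CBE1mut 0.97 at JH2 and 0.48 at JH3 opposite. CBE1inv against CBE1mut had −0.78, −0.15 and −0.019 at JH1, JH2 and JH3 opposite, and CBE2inv against CBE2mut −0.13 at JH3 deletional and −0.42 at JH3 opposite. WT treatment had −0.63, −1.43 and −1.40 at JH1, JH2 and JH3 opposite and −1.99 at JH3 deletional, 3CBEdel treatment −1.59 and −0.85 at JH1 and JH3 opposite and −1.26 at JH3 deletional, and 3CBEdel against WT with DoxIAA 0.16 at JH3 deletional.

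At JH3 deletional WT treatment turned to −0.14 with no filter, −0.16 with limma trend, −0.32 with run as a block and −1.35 within run 4. There 3CBEdel against WT with DoxIAA turned to 0.17, 0.26, 1.60 and 2.39, and untreated to 0.52 with run as a block. JH2 opposite for 3CBEdel treatment turned to 0.072 with no filter, 0.19 with limma trend, 0.26 with run as a block and 0.011 with V plus D joins as the library size. JH3 opposite between CBE2inv and CBE2mut was −0.030 with limma trend. With the replicate block, JH3 deletional was −0.0048 between CBE2inv and CBE2mut and 0.42 between 3CBEdel and WT with DoxIAA, JH2 opposite was 0.14 for 3CBEdel treatment, and 1 JH feature was called in CBE12mut. The block changed no other call, and paired exact tests cannot go below 0.25.

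The number of JH features called was 2 in CBE12mut, CBE1mut, WT treatment and 3CBEdel treatment both with distinct junctions and with median-of-ratios. It was 2 for 3CBEdel against WT untreated and 3 with DoxIAA by distinct junctions, 0 for the untreated comparison and 1 for CBE1inv against CBE1mut with median-of-ratios, 1 for CBE1inv against CBE1mut with limma trend as well, 2 for both treatments with no filter, and 0 for WT treatment within run 4. In CBE12mut and CBE1mut the called features were lower than WT with distinct junctions and higher with median-of-ratios. The shares of all features called under these settings are not given here.

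Leaving out 1 replicate at a time, CBE2inv against CBE2mut ranged over −1459 to 4040 per 100000 and −3.69 to 11.2 per 100 D joins, and it was below 0 without CBE2inv replicate 2. The variance p ranged over 0.00067 to 0.0901 per 100 D joins, 0.00467 to 0.0960 for the opposite share and 0.00958 to 0.0638 for the JH shares. Log2 differences that crossed 0 against WT ranged over −0.59 to 0.36 (CBE12mut, JH1 deletional), −0.36 to 1.11, −0.053 to 0.28 and −0.12 to 0.029 (CBE1mut, JH1 deletional, JH1 opposite and JH2 opposite), −0.024 to 0.38 (CBE1inv, JH1 opposite), −1.81 to 1.17 (CBE2mut, JH3 deletional) and −1.28 to 0.45 (CBE2inv, JH3 deletional). CBE1inv against CBE1mut ranged over −0.14 to 0.26 at JH1 opposite, and CBE2inv against CBE2mut over −1.39 to 1.59 at JH3 deletional and −0.82 to 0.69 at JH3 opposite. WT treatment ranged over −1.40 to 1.06 at JH3 deletional, and 3CBEdel treatment over −0.53 to 0.90 at JH1 opposite, −0.45 to 0.52 at JH2 opposite and −0.52 to 1.60 at JH3 deletional. With DoxIAA 3CBEdel against WT ranged over −1.22 to 1.29 at JH3 deletional, and the difference of effects over −0.95 to 0.010 at JH2 opposite and −0.61 to 1.90 at JH3 deletional. JH features called numbered 0 to 1 in CBE1inv against WT, in CBE2inv against CBE2mut, in 3CBEdel against WT with DoxIAA and in both treatments, and 1 to 2 in CBE1inv against CBE1mut. The treatment call at JH3 opposite was lost without WT DoxIAA replicate 2 in WT and without 3CBEdel DoxIAA replicate 2 in 3CBEdel.

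Depth limits the treated 3CBEdel values, since each of those libraries held 47 to 108 JH1 to JH3 junctions. Deletional junctions were too few in most libraries for a firm direction.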
